A study of Homo sapiens with 12 samples.

Results

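The rows described here are the stranded genomic regions of the deposited count table whose annotation begins with 3' UTR, the untranslated stretch of an mRNA behind its stop codon. Of 5254113 regions in the table, 23311 (0.444%) carried this annotation, and they named 7024 transcripts of 6758 genes. They held 1322083 of 71207398 reads, or 1.86%. The rows were divided by strand. The large class, 22356 rows (95.9%) at 6593 genes, lay on the strand opposite to the named transcript, where RNA could pair with the end of the mRNA. A small class, 780 rows (3.35%) at 278 genes, lay on the strand of the named transcript. A further 175 rows named a transcript without a match in the annotation used and were left out of both classes.

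All 12 libraries held RNA captured with J2, an antibody that binds double-stranded RNA, from NCI-H1944, a human lung adenocarcinoma line. The cells carried an IFNAR1 knockout (IFNAR1sg) or were wild type (SCR); IFNAR1 is a chain of the receptor for type I interferons. In each genotype 1 group had received MPS1i, the inhibitor BAY-1217389 of the mitotic kinase MPS1, at 100 nM for 48 h, followed by washout and 24 h of culture. A second group had recombinant interferon beta (IFNb) at 5 ng/ml in the 24 h after washout, and the remaining group had DMSO alone. Each of the 6 groups had 2 libraries. The labels say neither whether the cells of a genotype were 1 clone or a pool nor whether the 2 libraries came from separate cultures, so p-values measure only the spread between these libraries, which may be technical. Input RNA was not analysed here, so the abundance of an RNA and the part of it that is double-stranded cannot be told apart, and fewer cells making an RNA cannot be told apart from less RNA per cell.

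Double-stranded RNA arises where an RNA folds back on an inverted repeat or where both strands of a locus are transcribed. The 3' ends of genes are a common place for the second kind, since neighbouring genes often end tail to tail and their transcripts can run past the annotated end into each other. Cells sense such RNA with proteins such as MDA5 and PKR, and type I interferon, through IFNAR1, IFNAR2 and the factor STAT2, raises many genes of this defence (interferon-stimulated genes).

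The promoter element through which STAT2 acts, the interferon-stimulated response element, is built on GAAA written 2 times with a gap of 2 free bases (NN) between. It was searched on both strands of RefSeq promoters (build GRCh38.p14, 250 bases before to 50 after a start site) of the genes whose 3' UTR rows led the response to IFNb below. Of 13 genes asked for, 7 had a promoter in the table, and 2 of these 7 genes (28.6%) held the element in at least 1 promoter, against 28 of 1201 genes with a tested other-strand row (2.33%). Counted by single promoters rather than genes, 1255 of all 35116 (3.57%) held it. The genes searched were picked as interferon-stimulated or for rows that rose with IFNb in these libraries, so comparing the shares is no test. The element lay in 2 promoters of IFIT3, an interferon-induced antiviral protein that binds RNA together with its relatives, and in the promoter of SHFL, an interferon-induced inhibitor of viral frameshifting. Capitals mark the first element of each promoter, in 10 bases on either side; the strand shown is plus, and at IFIT3 the element is read from the other strand. Base numbers count from the start site.
IFIT3, chr10:89327831-89327860, element from base -156: agccgttaggTTTCATTTTCctcctcccaa
IFIT3, chr10:89332425-89332454, element from base -94: acagattctgTTTCAGTTTCccctcaagag
SHFL, chr19:10086264-10086293, element from base -43: cccctgaatcGAAAGCGAAAcaggggccgg
The promoters belong to the mRNA strand, and whether the elements act there was not tested; the rows described below lie on the other strand near the far end of the same genes. PSMB9, STAT2, TRIM25, RNF213 and TRIM38 had no match in this window.

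The other-strand rows were short and sparse. Their median length was 195 bp, 52.0% had no read in any library, and they held 84.1 reads per kb. In 84.1% of them every base lay opposite an annotated exon. Few were very long: 279 rows over 5 kb, up to 163631 bp, held 31.7% of the class's reads, and the annotation had gone by the row's centre, which lay in an exon of the named strand for 92.5% of member rows over 5000 bp. On their own strand, 19.1% lay in a gene body, 20.7% within 10 kb past a gene end and 60.2% had neither. These 3 kinds held 32.2%, 35.7% and 32.1% of reads. An Alu, the commonest primate repeat, was present in 10.1% of other-strand rows.

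The transcript-strand rows were of another kind. They held 486 reads per kb, 26.3% had no read, and 80.9% lay in a gene body. Only 151 of the 780 shared a base with an annotated exon of their strand, yet those held 65.0% of the class's reads. Of the other-strand rows, 618 shared such a base, 591 of them by only 1 or 2 bases at an edge, and these held 24.6% of the reads. The table thus held few rows on the mRNA strand itself, and a ratio between the classes is not a ratio of antisense RNA to mRNA. The share of mRNA reads counted on the other strand was not tested.

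Among other-strand rows the most reads fell in that annotated to BAX, the death effector (chr19:48954812-48967406, minus strand, from 719 bp past the end of GYS1, with 34144 reads). Next came the rows of CALM3, a calmodulin gene, VPS4A, an ATPase of membrane scission, and COPA, a coat protein of Golgi vesicles. Only 35.0% of the 12595 bp BAX row and 20.2% of the 52948 bp COPA row lay opposite an exon, against 100% at CALM3 and 86.3% at VPS4A. Where in the long rows the reads fell was not tested. The 10 richest rows held 15.9% of the reads, and 118 rows held 50%. The transcript strand was more concentrated, with 50.4% of reads in 10 rows, led by SLC35E2A, a putative solute carrier (13709 reads), SEPTIN10, a cytoskeletal GTPase (13046), GPATCH2L (10555) and MDM2, the ubiquitin ligase of p53 (10175).

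Libraries held 3739443 to 7430687 reads. Both SCR IFNb libraries stood apart: reads covered 295367 and 296843 regions in them, against 566704 to 935974 in the other 10, and their scaling factors (TMM) were 0.768 and 0.781 against 0.953 to 1.11. In an IFNAR1 row picked by its position (chr21:33343676-33344099), IFNAR1sg libraries held 1.64 to 3.33 CPM (reads in tested regions, scaled by TMM to a common library size). SCR libraries held 8.65 to 11.7 CPM in it. Other regions of IFNAR1 are not given, so these values describe that row alone. Cell-type markers were summed only over regions inside the gene that share no annotated exon base, outside the 3' UTR rows. A marker counts as measured where this sum passed the count filter, and its exonic reads were not examined. Of the lung epithelial markers, 5 of 11 were measured (EPCAM, CDH1, KRT7, KRT8 and KRT18), with summed levels of 96.3 to 158 CPM. The lung markers NKX2-1, SFTPB, SFTPC and NAPSA were not measured, nor were KRT19 and MUC1. Of the fibroblast markers only ACTA2 and FAP and of the immune markers only CD4 and CD8A were measured (2 of 9 each), so the defining COL1A1 and PTPRC were not. The fibroblast pair summed to 15.4 to 17.5 CPM with MPS1i against 3.11 to 3.19 CPM with DMSO in IFNAR1sg cells, and to 21.3 to 22.2 CPM against 2.13 to 3.67 CPM in SCR cells. The immune pair summed to 4.42 to 6.36 CPM with MPS1i against 0.445 to 1.12 CPM with DMSO in IFNAR1sg cells, and to 5.4 to 7.42 CPM against 0.581 to 1.00 CPM in SCR cells. Their part in the MPS1i changes below was not tested.

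The share of a library's reads on the other strand of 3' UTRs moved little. In IFNAR1sg cells it was 1.51% and 1.92% with MPS1i, 1.65% and 1.45% with IFNb, and 1.35% and 1.37% with DMSO. In SCR cells it was 1.57% and 1.85% with MPS1i, 1.99% and 2.14% with IFNb, and 1.43% and 1.93% with DMSO. Treated libraries lay above DMSO in 3 of the 4 comparisons, all but MPS1i in SCR. The mean ratio to DMSO was 1.26 for MPS1i and 1.14 for IFNb in IFNAR1sg cells, and 1.02 for MPS1i and 1.23 for IFNb in SCR cells. With 2 libraries against 2 the exact two-sided permutation test cannot go below p = 0.333, so none of these differences could pass it. On the transcript strand the share stayed between 0.190% and 0.212% in all 12 libraries.

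**Figure D1:**
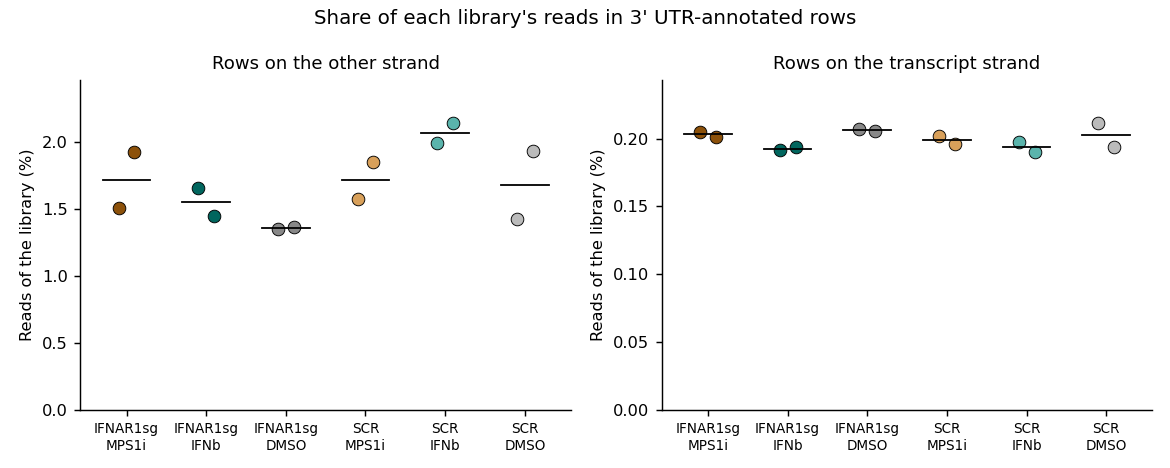
Share of each library's reads, in percent, in 3' UTR rows on the other strand (left) and on the transcript strand (right), for the 6 groups; points are libraries and lines are means of 2. On the other strand both SCR IFNb libraries (1.99% and 2.14%) lie highest and both IFNAR1sg DMSO libraries (1.35% and 1.37%) lowest.

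For row-by-row tests, 1744 other-strand rows at 1478 genes and 145 transcript-strand rows at 100 genes passed the filter on low counts, with 93.2% and 96.9% of the reads of their classes. In SCR cells IFNb raised 457 other-strand rows (26.2%) and lowered 73; over all 89111 regions tested 15% were called higher and 18.1% lower. The median log2 change of other-strand rows was 0.63, and that of all regions -0.36. On the transcript strand 32 rows rose and 14 fell, with a median of 0.22. Calls here and below are those of edgeR's quasi-likelihood test at a Benjamini-Hochberg adjusted p under 0.05 over all regions. The split moved with the scaling: without TMM factors the median of all regions was -0.84, other-strand rows split into 205 higher and 188 lower (median 0.14), and transcript-strand rows into 12 higher and 32 lower. The other-strand median lay above that of all regions under both scalings. The other-strand calls in both directions numbered 319 without SCR DMSO replicate 1 and 340 and 346 without SCR IFNb replicate 2 and 1, and the 46 on the transcript strand were 29 without SCR IFNb replicate 1.

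MPS1i moved fewer rows. In IFNAR1sg cells it raised 287 other-strand rows (16.5%) and lowered 14, where 9.4% of all regions were called higher and 7.87% lower; 8 transcript-strand rows rose and 3 fell. In SCR cells it raised 138 other-strand rows (7.91%) and lowered 38, where 9.55% of all regions were called higher and 7.97% lower; 13 transcript-strand rows rose and 4 fell. The share of other-strand rows called higher was thus above the background in IFNAR1sg cells and near or under it in SCR cells. Median log2 changes were 0.50 and 0.17 on the other strand, 0.03 and 0.16 on the transcript strand, and 0.01 and -0.03 over all regions, in IFNAR1sg and in SCR cells. Without factors the SCR split was 86 higher and 63 lower on the other strand and 7 higher and 9 lower on the transcript strand. The count in SCR cells, 176 calls in all, was 72 without SCR MPS1i replicate 2 and 106 without SCR DMSO replicate 1; that in IFNAR1sg cells, 301, was 114 without IFNAR1sg MPS1i replicate 2, 138 without IFNAR1sg DMSO replicate 2 and 170 without IFNAR1sg DMSO replicate 1. On the transcript strand the 11 calls in IFNAR1sg cells were 5 without replicate 2 of the MPS1i or of the DMSO libraries and 6 without DMSO replicate 1, and the 17 in SCR cells were 9 without MPS1i replicate 1 and 11 without either DMSO library.

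IFNb in IFNAR1sg cells raised 26 other-strand rows and lowered 1, against 0.549% and 0.131% (0.68% in all) of all regions. It changed 0 of the 145 transcript-strand rows by edgeR, where 12 had an unadjusted p under 0.05 and DESeq2 called 1. The other-strand count of 27 was 2 without IFNAR1sg IFNb replicate 1 and 4 without IFNAR1sg DMSO replicate 2. It was 43 to 52 without IFNAR1sg IFNb replicate 2, either IFNAR1sg MPS1i library or either SCR DMSO library.

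**Figure D2:**
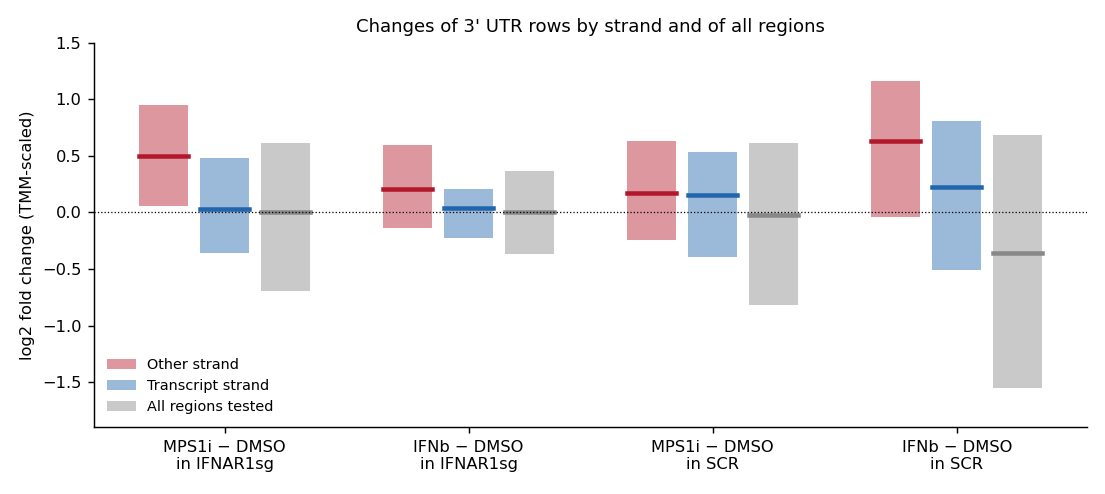
Median log2 fold change (lines) and middle 50% (bars) of tested 3' UTR rows on the other strand and on the transcript strand and of all 89111 regions, for MPS1i or IFNb minus DMSO in IFNAR1sg and in SCR cells, TMM-scaled. With IFNb in SCR cells the other-strand median (0.63) lies above that of all regions (-0.36).

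The higher rows were spread over every kind of other-strand row. With IFNb in SCR cells, 148 of 536 tested rows in a gene body of their own strand rose, 110 of 516 past a gene end, and 199 of 692 with neither. Rows with an Alu rose in 124 of 542 cases and rows without one in 333 of 1202. Of rows wholly opposite an exon 188 of 870 rose, and of the other rows 269 of 874. Rows were also set against a sum for the named gene, over regions on its own strand that share no annotated exon base. This sum leaves out exonic regions, regions inside more than 1 gene and 3' UTR rows, so it is not a measure of the mRNA. The rows moved with the sum in some cases and against it in others. With IFNb in SCR cells, of the 370 risen rows with such a sum, 54 sums rose, 175 fell and 141 were not called, where all 1476 rows with a sum had 89, 832 and 555; of the 65 fallen rows, 1 sum rose and 43 fell. With MPS1i, sums of risen rows were more often higher than lower, 77 and 51 of 240 in IFNAR1sg cells (271 and 428 over all rows) and 41 and 18 of 108 in SCR cells (251 and 488 over all rows), and of 36 fallen rows in SCR cells 22 sums fell. Across those rows the Pearson correlation of row and sum was 0.30 with IFNb in SCR cells, and with MPS1i 0.23 in IFNAR1sg and 0.32 in SCR cells. Both values of a point come from the same libraries.

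Most tested rows facing interferon-stimulated genes rose with MPS1i in both genotypes and with IFNb in SCR cells. Of 106 such genes listed, 15 had 24 other-strand 3' UTR rows, of which 14 rows at 11 genes were tested; none had a transcript-strand row. In IFNAR1sg cells MPS1i raised 10 of the 14 and IFNb 2, IFIT3 and TRIM38. In SCR cells MPS1i raised 11 and IFNb 13, and none fell in any of these comparisons. Of all regions tested, MPS1i and IFNb raised 9.4% and 0.549% in IFNAR1sg cells and 9.55% and 15% in SCR cells. The filter admits a row with enough reads in 1 group, so sparse rows could enter through the SCR IFNb libraries where they are high. The count for IFNb is therefore no independent test of a rise. For the 14 rows, median log2 changes with MPS1i and IFNb were 1.90 and 0.89 in IFNAR1sg cells and 1.76 and 3.21 in SCR cells. The 13 held with every library left out in turn, while the MPS1i count dropped in IFNAR1sg cells to 6 without MPS1i replicate 2 or either DMSO library, and also to 6 with DESeq2 or without the filter, and in SCR cells to 8 without MPS1i replicate 2. Without scaling factors the counts with MPS1i and IFNb were 10 and 2 in IFNAR1sg cells and 10 and 13 in SCR cells.

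**Figure D3:**
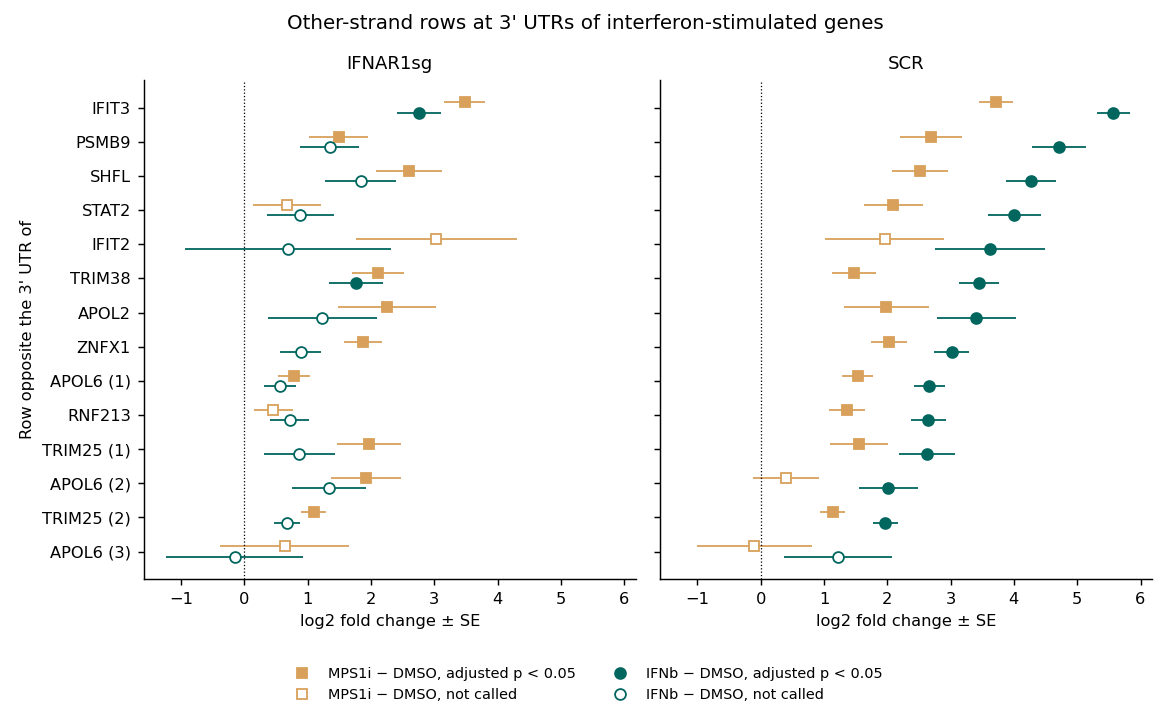
Log2 fold change ± SE of the 14 tested other-strand rows at 3' UTRs of interferon-stimulated genes, for MPS1i (squares) and IFNb (circles) minus DMSO in IFNAR1sg (left) and SCR cells (right); filled symbols passed an adjusted p of 0.05, and numbers in brackets order rows of 1 gene by position. In SCR cells every IFNb value but that of APOL6 (3) is filled, and in IFNAR1sg cells only IFIT3 and TRIM38 are filled for IFNb.

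The IFIT3 row (chr10:89338575-89342492, minus strand) covers the 3' UTR from the other side and lies inside LIPA, a lysosomal lipase gene on the minus strand. It held 15.5 and 18.2 CPM with MPS1i, 11.2 and 9.17 CPM with IFNb and 1.56 and 1.43 CPM with DMSO in IFNAR1sg cells. SCR libraries of this row held 31.2 and 51.4 CPM with MPS1i, 149 and 152 CPM with IFNb and 2.83 and 3.49 CPM with DMSO. Every treated library lay above every DMSO library of either genotype, and SCR IFNb libraries lay highest. The log2 changes were 3.48 ± 0.33 (MPS1i) and 2.76 ± 0.35 (IFNb) in IFNAR1sg cells and 3.72 ± 0.27 and 5.57 ± 0.26 in SCR cells, with edgeR adjusted p-values of 9.01e-14, 2.49e-08, 1.85e-19 and 9.96e-31 (± SE here and below). The change with IFNb in IFNAR1sg minus that in SCR cells was -2.81 ± 0.53 (edgeR adjusted p = 0.000123). Regions of LIPA on its own strand that share no exon base rose too, by 2.70 with MPS1i and 3.97 with IFNb in SCR cells. Such regions of IFIT3 rose by 3.37 and 3.42. IFIT2, its neighbour and relative, had a sparser row inside LIPA that rose by 3.62 ± 0.87 with IFNb in SCR cells.

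PSMB9, an interferon-induced proteasome subunit for antigen presentation, had a long other-strand row that overlaps the edge of TAP1, the peptide transporter gene on the minus strand (chr6:32853840-32865486, minus strand). It held 3.88 and 4.42 CPM with MPS1i, 3.79 and 3.74 CPM with IFNb and 0.667 and 2.07 CPM with DMSO in IFNAR1sg cells, and 5.25 and 7.56, 24.2 and 28.6, and 0.833 and 1.16 CPM with MPS1i, IFNb and DMSO in SCR cells. Treated and DMSO libraries did not overlap in either genotype. The rise with IFNb in SCR cells was 4.70 ± 0.43 (edgeR adjusted p = 2.95e-15), and 139 bases of the row are exon of its own strand. The regions of TAP1 off annotated exons rose by 6.60. With MPS1i in IFNAR1sg cells PSMB9 rose by 1.49 ± 0.46, a call lost without IFNAR1sg DMSO replicate 1 (1.01) or IFNAR1sg MPS1i replicate 2 (1.38).

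TRIM25, a ubiquitin ligase that activates the RNA sensor RIG-I, had 2 rows. The richer 1 (chr17:56888957-56891382, plus strand), wholly opposite exon, held 63.4 and 115 CPM with MPS1i, 69.5 and 63.0 CPM with IFNb and 41.1 and 41.9 CPM with DMSO in IFNAR1sg cells, and 128 and 183, 230 and 325, and 50.3 and 92.0 CPM in SCR cells in the same order. Libraries with DMSO were lowest in each genotype. It rose by 1.10 ± 0.20 with MPS1i in IFNAR1sg cells, and by 1.14 ± 0.19 with MPS1i and 1.97 ± 0.19 with IFNb in SCR cells; with IFNb in IFNAR1sg cells the value was 0.67 ± 0.20 (edgeR adjusted p = 0.103). TRIM25 was also, with SON, the only gene of 40 in a list of double-stranded RNA sensing and processing with a tested row, and SON did not pass in any contrast.

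STAT2, the factor that carries the interferon signal to the nucleus, had a row past the end of IL23A (chr12:56341429-56342305, plus strand). It held 0.883 and 4.09 CPM with MPS1i, 3.79 and 2.04 CPM with IFNb and 1.56 and 1.59 CPM with DMSO in IFNAR1sg cells, where MPS1i and DMSO libraries overlapped. Its SCR libraries held 5.25 and 9.93 CPM with MPS1i, 21.9 and 36.9 CPM with IFNb and 1.00 and 2.71 CPM with DMSO, without overlap between groups. It rose by 2.10 ± 0.46 with MPS1i and 4.01 ± 0.42 with IFNb in SCR cells; the MPS1i call was lost without SCR MPS1i replicate 2 (1.52). SHFL rose by 2.60 ± 0.52 with MPS1i in IFNAR1sg cells and by 2.52 ± 0.44 with MPS1i and 4.27 ± 0.40 with IFNb in SCR cells. ZNFX1, a helicase that binds viral RNA at mitochondria, had a row past the end of DDX27 (chr20:49245833-49246874, plus strand) that rose by 1.87 ± 0.30, 2.02 ± 0.28 and 3.02 ± 0.28 in the same 3 comparisons. TRIM38, a ubiquitin ligase of innate immunity, rose in all 4, by 2.11 and 1.77 with MPS1i and IFNb in IFNAR1sg cells and 1.48 and 3.44 in SCR cells; the 1.77 was not called without IFNAR1sg DMSO replicate 1 (1.55) or 2 (2.20), or IFNAR1sg IFNb replicate 2 (1.59).

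RNF213, a large ubiquitin ligase with antimicrobial roles, rose with MPS1i (1.36 ± 0.29) and IFNb (2.65 ± 0.27) in SCR cells, and had values of 0.46 and 0.72 in IFNAR1sg cells that did not pass. The apolipoprotein L genes, interferon-induced and partly linked to programmed death, gave 4 rows. The first APOL6 row rose by 0.79 ± 0.25 with MPS1i in IFNAR1sg cells and by 1.53 ± 0.24 with MPS1i and 2.67 ± 0.24 with IFNb in SCR cells; the 0.79 was not called without IFNAR1sg MPS1i replicate 2 (0.53) or IFNAR1sg DMSO replicate 1 (0.81) or 2 (0.78). The APOL2 row rose by 3.41 ± 0.62 with IFNb in SCR cells. Its MPS1i calls, 2.26 ± 0.78 in IFNAR1sg and 1.98 ± 0.67 in SCR cells, did not hold in every leave-out. The first was lost without either IFNAR1sg DMSO library or IFNAR1sg MPS1i replicate 2 (1.85 to 2.94). The second was lost without any of the 4 SCR libraries compared, though its value stayed at 1.88 to 2.09.

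Of the 14 interferon rows, 8 shared no exon base of their own strand. IFIT3, TRIM25, SHFL and TRIM38 rows adjoined such an exon by 1 or 2 bases. Among the 8, MPS1i raised 4 in IFNAR1sg cells, and in SCR cells MPS1i raised 5 and IFNb 7.

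APOBEC3F, a cytidine deaminase that restricts retroviruses, was not on the list and had the smallest p outside it with IFNb in SCR cells. Its row (chr22:39055384-39056086, minus strand) faced no annotated exon. It held 5.65 and 7.20 CPM with MPS1i, 8.37 and 4.42 CPM with IFNb and 1.78 and 1.43 CPM with DMSO in IFNAR1sg cells. The SCR libraries had 15.8 and 12.7 CPM with MPS1i, 42.8 and 53 CPM with IFNb and 1.67 and 5.23 CPM with DMSO. Treated libraries lay above DMSO in both genotypes. The changes were 2.01 ± 0.42 (MPS1i) and 2.01 ± 0.42 (IFNb) in IFNAR1sg cells, and 2.07 ± 0.35 and 3.83 ± 0.32 in SCR cells. The IFNb change in IFNAR1sg cells was not called without IFNAR1sg DMSO replicate 2 (1.88) or IFNAR1sg IFNb replicate 1 (1.49). MCL1, a survival protein of the BCL2 family, rose by 1.00 ± 0.20 with MPS1i in IFNAR1sg cells and by 1.08 ± 0.20 and 1.80 ± 0.20 with MPS1i and IFNb in SCR cells.

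Rows off the list also rose with MPS1i. The row facing ZNF483, a zinc finger gene, lies 2049 bp past the end of PTGR1 (chr9:111544071-111547673, minus strand). It held 38 and 41.6 CPM with MPS1i, 9.79 and 8.84 CPM with IFNb and 9.12 and 6.05 CPM with DMSO in IFNAR1sg cells. SCR cells gave 45.4 and 46.9 CPM with MPS1i, 19.7 and 18.4 CPM with IFNb and 8.83 and 9.68 CPM with DMSO. MPS1i libraries stood above all others in each genotype. The rise with MPS1i was 2.41 ± 0.24 in IFNAR1sg and 2.32 ± 0.24 in SCR cells, and with IFNb 1.04 ± 0.26 in SCR cells. The regions of PTGR1, a reductase of lipid mediators, off annotated exons had log2 changes of -0.67 in IFNAR1sg and -0.70 in SCR cells with MPS1i. ETV3, an ETS repressor, rose with MPS1i by 1.17 ± 0.21 in IFNAR1sg and 1.34 ± 0.21 in SCR cells, and with IFNb by 1.48 ± 0.21 in SCR cells. MYEOV, a gene amplified in some tumours, rose in all 4 comparisons, by 1.34 and 0.66 with MPS1i and IFNb in IFNAR1sg cells and by 1.09 and 1.46 in SCR cells. CXCL5, a neutrophil chemokine, rose by 1.81 ± 0.26 with MPS1i in IFNAR1sg cells and by 1.00 ± 0.24 and 1.25 ± 0.24 with MPS1i and IFNb in SCR cells.

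The rows that fell faced genes of other functions. At SIK2, a salt-inducible kinase, the row starting at chr11:111728933 lies inside PPP2R1B, a phosphatase scaffold gene. It held 21.4 and 17.8 CPM with MPS1i, 15.9 and 17.8 CPM with IFNb and 32.0 and 28.0 CPM with DMSO in IFNAR1sg cells, where treated libraries lay below DMSO. In SCR cells it held 10.5 and 11.4 CPM with MPS1i, 5.20 and 4.14 CPM with IFNb, and 33.2 and 25.8 CPM with DMSO. In SCR cells it was lowest with IFNb, with no overlap between treatments. It fell by 0.61 ± 0.22 with MPS1i in IFNAR1sg cells, where the IFNb value was -0.83 (edgeR adjusted p = 0.0569), and by 1.42 ± 0.25 with MPS1i and 2.65 ± 0.30 with IFNb in SCR cells. PPP2R1B regions off annotated exons changed by -0.34 and -1.04 in SCR cells. PDE7A, a cAMP phosphodiesterase whose row lies in MTFR1, gave -1.20 ± 0.21 with MPS1i and -1.49 ± 0.22 with IFNb in SCR cells. With IFNb in SCR cells LPP, a cell-adhesion protein, gave -2.37 ± 0.37 and KCNV2, a potassium channel subunit, gave -2.73 ± 0.46. EIF4B, a translation initiation factor and the sixth richest row, gave -0.69 ± 0.14 with MPS1i and -0.87 ± 0.14 with IFNb in SCR cells, the MPS1i call being lost without SCR MPS1i replicate 1 (-0.52).

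MDM2 and CPM, a membrane carboxypeptidase, end tail to tail on chromosome 12. With IFNb in SCR cells the better-covered rows annotated to them moved apart by strand, but the minus-strand row that rose did not lie inside CPM. On the MDM2 strand, the 3181 bp row of its 3' UTR (chr12:68845545-68848725, plus strand) held 252 and 246 CPM with MPS1i, 108 and 118 CPM with IFNb and 156 and 159 CPM with DMSO in IFNAR1sg cells. The SCR libraries of this row held 219 and 237 CPM with MPS1i, 62.5 and 77.1 CPM with IFNb and 175 and 180 CPM with DMSO. MPS1i libraries were highest and IFNb libraries lowest, without overlap in either genotype. It rose by 0.66 ± 0.15 with MPS1i in IFNAR1sg cells (0.36 ± 0.15 in SCR cells, edgeR adjusted p = 0.0744) and fell by 1.35 ± 0.16 with IFNb in SCR cells (-0.48 ± 0.15 in IFNAR1sg cells, adjusted p = 0.13). The row past it, annotated to CPM but on the strand of MDM2 (chr12:68850294-68853715), held 114 and 101 CPM with MPS1i, 25.7 and 31.8 CPM with IFNb and 37.8 and 47.1 CPM with DMSO in IFNAR1sg cells, and 98.6 and 95.0, 17.1 and 12.8, and 47.2 and 48.6 CPM in SCR cells in that order. It showed the same order of groups. It rose with MPS1i by 1.33 ± 0.18 in IFNAR1sg and 1.01 ± 0.18 in SCR cells and fell with IFNb by 1.68 ± 0.22 in SCR cells.

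On the strand opposite to MDM2, the row at chr12:68840114-68841288 (minus strand) held 59.1 and 103 CPM with MPS1i, 44.4 and 37.4 CPM with IFNb and 34.7 and 39.2 CPM with DMSO in IFNAR1sg cells, and 54.7 and 91.3, 85.1 and 118, and 29.5 and 67.6 CPM in SCR cells. The row lies past the end of an unnamed minus-strand gene, not inside CPM. It was higher, not lower, with IFNb in SCR cells, by 1.07 ± 0.22, and with MPS1i in IFNAR1sg cells by 1.13 ± 0.22. Its MPS1i call in SCR cells (0.61 ± 0.22) was not made without SCR MPS1i replicate 2 (0.18), SCR DMSO replicate 1 (0.13) or the scaling factors (0.44), and MPS1i and DMSO libraries overlapped there. A sparse minus-strand row at 68849400, inside CPM, held 0 reads in both SCR IFNb libraries and 16 in the SCR DMSO libraries; against a floor of 3 counts over the group it was at least 2.55-fold lower, a call lost when either SCR IFNb library or SCR DMSO replicate 2 was left out.

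**Figure D4:**
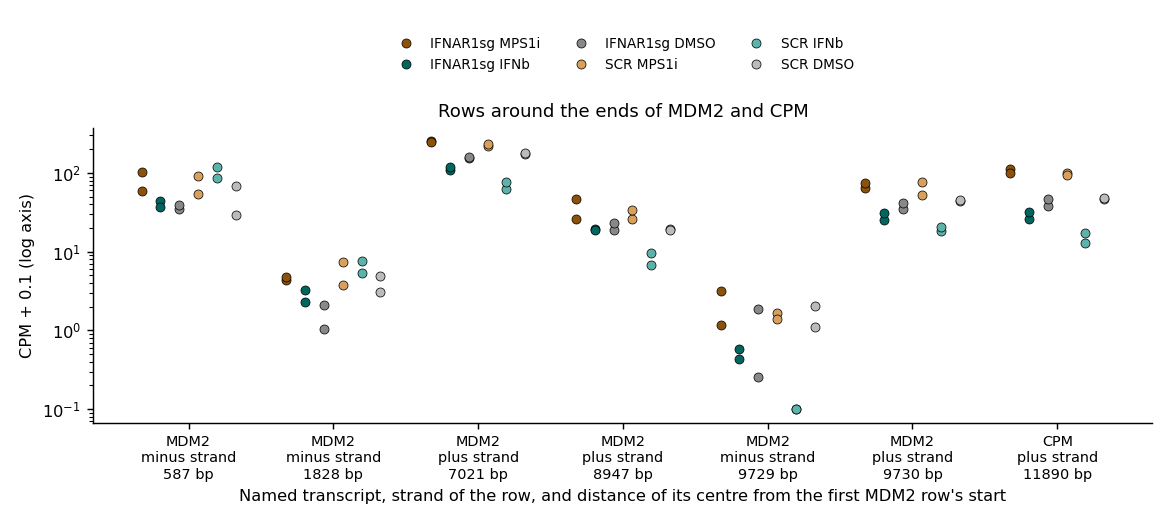
CPM plus 0.1 (log axis) of the 7 tested rows at the facing ends of MDM2 and CPM in each of the 12 libraries, coloured by group; labels give the named gene, the strand of the row and the distance of its centre from the start of the first MDM2 row. Plus-strand rows are lowest in SCR IFNb libraries, while the first minus-strand row is not.

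Of the 145 transcript-strand rows 31.7% were called with IFNb in SCR cells, against 30.4% of other-strand rows and 33% of all regions. PNP, a purine nucleoside phosphorylase, has a row adjoining its annotated end (chr14:20477095-20478027) that held 82.1 and 70.0 CPM with MPS1i, 41.1 and 50.6 CPM with IFNb and 41.4 and 41.6 CPM with DMSO in IFNAR1sg cells. In SCR cells PNP held 88.4 and 75.4 CPM with MPS1i, 83.6 and 89.2 CPM with IFNb and 41.7 and 37.4 CPM with DMSO. IFNb separated from DMSO clearly in SCR cells only. The changes were 0.87 ± 0.18 with MPS1i in IFNAR1sg cells and 1.05 ± 0.18 and 1.13 ± 0.18 with MPS1i and IFNb in SCR cells. UFM1, a ubiquitin-like modifier, rose by 1.72 ± 0.21 with IFNb in SCR cells and by 0.85 ± 0.21 with MPS1i, the second call being lost without SCR MPS1i replicate 2 (0.51). CDK17, a cyclin-dependent kinase, rose by 1.47 ± 0.21 and ARIH2, a ubiquitin ligase, by 1.47 ± 0.20 with IFNb in SCR cells. SEPTIN10 and RPP30, a subunit of RNase P, rose by 0.79 ± 0.14 and 1.23 ± 0.20 there. The regions of SEPTIN10 and CDK17 off annotated exons, their 3' UTR rows left out, had changes of -1.14 and -1.28 in the same comparison. The MPS1i values of CDK17 and SEPTIN10 in SCR cells were 0.82 ± 0.21 and 0.59 ± 0.14, the CDK17 call being lost without SCR MPS1i replicate 1 (0.70).

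Among transcript-strand rows that fell, PDE4D, a cAMP phosphodiesterase, held 6.53 and 7.53 CPM with MPS1i, 17.5 and 19.9 CPM with IFNb and 17.3 and 19.9 CPM with DMSO in IFNAR1sg cells. In SCR cells PDE4D held 5.56 and 6.48 CPM with MPS1i, 2.97 and 6.40 CPM with IFNb and 20.5 and 19.4 CPM with DMSO. MPS1i libraries lay below DMSO in both genotypes and IFNb libraries only in SCR. It fell with MPS1i by 1.41 ± 0.27 in IFNAR1sg and 1.71 ± 0.29 in SCR cells, and with IFNb by 2.09 ± 0.33 in SCR cells. RPL13, a protein of the large ribosomal subunit, fell by 1.82 ± 0.32 and PPARG, a nuclear receptor of fat metabolism, by 1.31 ± 0.35 with IFNb in SCR cells; PPARG was not called without SCR IFNb replicate 2 (-1.0) or SCR DMSO replicate 1 (-1.02). SLC35E2A, the richest row, gave -0.65 ± 0.14 with MPS1i and -0.94 ± 0.14 with IFNb in SCR cells; its MPS1i call was lost without SCR MPS1i replicate 2 (-0.54).

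Whether reads annotated to 1 transcript shifted between strands was tested for the 13 transcripts with at least 60 reads on each strand. The test was limma on the log2 ratio of other-strand to transcript-strand reads, in which library size cancels. Reads were summed over all rows of each strand, which need not overlap. At MDM2 the best-covered other-strand row ends at 68841288, before the first tested transcript-strand row at 68845545. With IFNb in SCR cells the balance moved to the other strand at 3 of 13 (23.1%). At MDM2 the libraries held 245 and 335 other-strand reads beside 243 and 278 transcript-strand reads with IFNb, against 204 and 391 beside 1432 and 1260 with DMSO, a change of 2.39 ± 0.45 (limma adjusted p = 0.00267). At RPL13 they held 112 and 164 beside 11 and 17 with IFNb, against 162 and 196 beside 104 and 102 with DMSO, a change of 2.47 ± 0.43 (limma adjusted p = 0.00267). At WDR53, a WD-repeat protein, 155 and 167 stood beside 56 and 44 with IFNb, against 128 and 115 beside 129 and 108 with DMSO, a change of 1.65 ± 0.36 (limma adjusted p = 0.00533). At MDM2 and RPL13 the transcript strand fell, and at none of the 3 did IFNb and DMSO ratios overlap.

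With MPS1i in SCR cells 2 of 13 (15.4%) were called, ZBTB37, a zinc finger protein (1.89 ± 0.56), and PAPOLA, the poly(A) polymerase (-1.52 ± 0.44), both with an adjusted p of 0.0463. PAPOLA held 7412 reads on the other strand and 64 on the transcript strand in all, and 0 transcripts passed in this comparison with a pseudocount of 2 reads or a minimum of 24 reads. PAPOLA also had a very long other-strand row, described below, so its balance need not describe the 3' end. The MPS1i change differed between genotypes at 1 of 13 (7.69%), PAPOLA, by 2.78 ± 0.62 (limma adjusted p = 0.0161). In IFNAR1sg cells 0 of 13 (0%) passed with either treatment by limma.

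**Figure D5:**
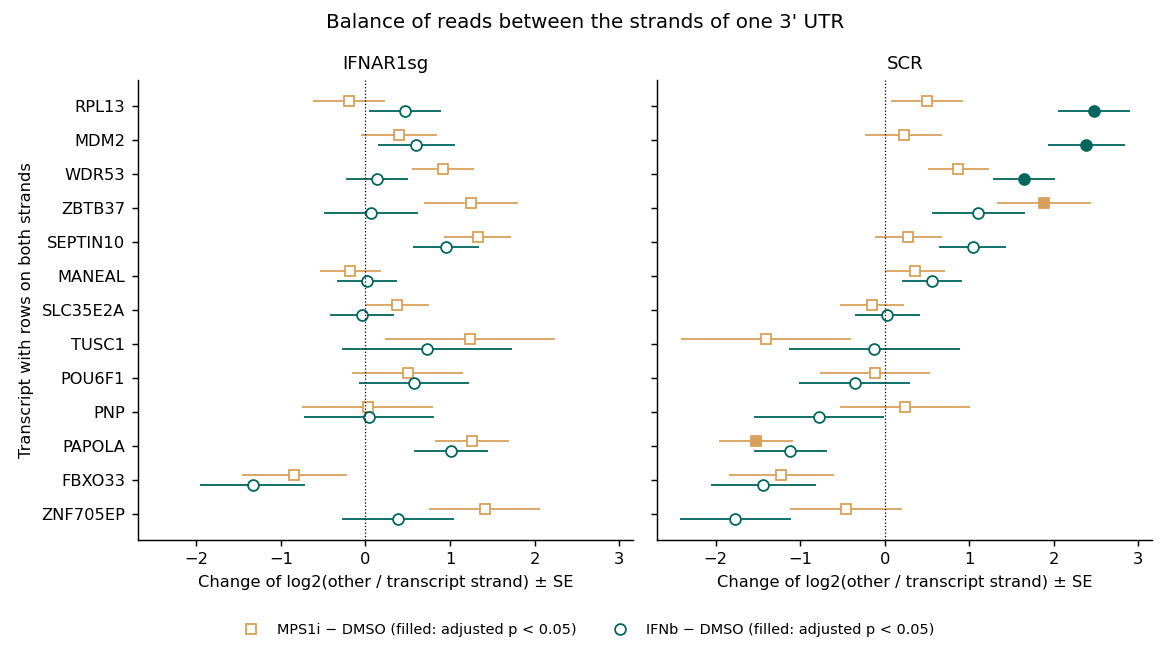
Change ± SE of log2(other-strand / transcript-strand reads) at the 13 transcripts tested, for MPS1i (squares) and IFNb (circles) minus DMSO in IFNAR1sg (left) and SCR cells (right). Reads are summed over all rows of each strand, which need not overlap. Filled symbols passed an adjusted p of 0.05. RPL13, MDM2 and WDR53 are filled for IFNb in SCR cells, at 2.47, 2.39 and 1.65.

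Other gene lists met few tested rows. Of 33 p53 targets, 11 had 28 other-strand rows and 9 were tested: MPS1i raised 5 in IFNAR1sg and 3 in SCR cells, and IFNb raised 3 and lowered 1 in SCR cells. Beside these few rows, 16.5%, 7.91% and 26.2% of all tested other-strand rows were called higher in the 3 comparisons, and 9.4%, 9.55% and 15% of all regions. MDM2 is 1 of the p53 targets, and BAX, with the long row described above, is another. Of 18 genes reported to carry inverted Alu repeats in the 3' UTR, 9 had 40 other-strand rows, but only 5 were tested, at MDM2, RBBP9 and GSTCD, and the called ones were all rows of MDM2. The 27 targets of NRF2, the factor of the oxidative stress response, had 6 tested rows, the 29 genes of 3' end formation 4, the 21 genes of the integrated stress and unfolded protein responses 5, and the lists of mitosis (53 genes) and of NF-kB targets (32) 2 each. PAPOLA, of the 3' end list, had a 66 kb other-strand row (chr14:96502321-96568379, minus strand). Annotation went by the row's centre, so its reads need not lie at the gene's end. The row rose by 0.66 ± 0.17 and 0.69 ± 0.17 with MPS1i and IFNb in IFNAR1sg cells, and by 0.74 ± 0.17 with IFNb in SCR cells. The other-strand row at BIRC5, the mitotic survival factor survivin, rose by 0.99 ± 0.39 with IFNb in SCR cells. At SLC7A11, the cystine importer, an other-strand row inside the gene SLC7A11-AS1 fell by 1.28 ± 0.46 with MPS1i in SCR cells.

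In DMSO, 1 other-strand row was higher and 13 lower in IFNAR1sg than in SCR cells, 0.803% of those tested, against 0.0774% of all regions (0.0135% higher and 0.064% lower), and 0 of 145 transcript-strand rows were called by edgeR or DESeq2, with 3 at an unadjusted p under 0.05. The median log2 difference of other-strand rows was -0.34, against 0.00 over all regions. The share of other-strand reads was 1.93% in SCR DMSO replicate 2 and 1.43% in replicate 1, whose part in this difference was not tested. The 14 calls were 2 without SCR DMSO replicate 2 and 101 without SCR DMSO replicate 1. The count was 4 without IFNAR1sg DMSO replicate 2 and 25 to 33 without any 1 of the 8 treated libraries. COLGALT1, a collagen galactosyltransferase, held 68.5 and 75.2 CPM in IFNAR1sg and 124 and 216 CPM in SCR cells, a difference of -1.24 ± 0.17. The higher row, at BET1L, a Golgi vesicle fusion protein, held 42.0 and 67.9 CPM in IFNAR1sg and 21.8 and 33.5 CPM in SCR cells, 1.01 ± 0.19; it was not called without SCR DMSO replicate 1 (0.72) or IFNAR1sg DMSO replicate 2 (0.58).

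The change with IFNb differed between genotypes at 122 other-strand rows, 26 with the more positive change in IFNAR1sg cells and 96 in SCR cells, against 7.06% and 5.11% of all regions. On the transcript strand 6 and 14 rows differed. The 122 were 52 without SCR IFNb replicate 2, 79 without SCR IFNb replicate 1, 70 without IFNAR1sg IFNb replicate 2 and 71 without IFNAR1sg DMSO replicate 2. The 20 on the transcript strand were 11 to 13 without any 1 of both SCR IFNb libraries, IFNAR1sg IFNb replicate 2 and IFNAR1sg DMSO replicate 1. Without scaling factors the splits turned to 70 and 26 on the other strand and 13 and 3 on the transcript strand. Of the 14 interferon rows, 9 had a smaller rise with IFNb in IFNAR1sg cells. The change with MPS1i differed at 4 other-strand rows, 3 and 1 (0.0112% and 0.0516% of all regions, 0.0628% in all), and at 0 transcript-strand rows by edgeR and by DESeq2, where 7 had an unadjusted p under 0.05. The 4 were 29 without SCR DMSO replicate 1, 2 without SCR DMSO replicate 2, 7 without SCR MPS1i replicate 2 and 11 without IFNAR1sg MPS1i replicate 1. None of the 14 interferon rows differed for MPS1i by edgeR, which does not show that the responses were alike: for IFIT3 the difference was -0.24 ± 0.52 and for STAT2 -1.42 ± 0.74.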

How the data were processed

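The authors deposited whole-number read counts per stranded region for 12 J2 libraries, made from SMARTer stranded total RNA libraries per the labels' protocols. HOMER, featureCounts, STAR and the trimmers cutadapt, Trimmomatic and Trim Galore are named, with builds GRCh38 and hg38 but no roles, in the submitters' processing notes. How strand, overlaps and multiply mapped reads were counted was not found in the labels, and reads of near-identical or overlapping genes may be shared. Every value column was mapped to a library (0 unmapped).

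The rows and all gene lists were chosen with earlier results of these data known. The named transcript's strand came from GENCODE release 29, with RefSeq for names it lacked. All 12 libraries entered 1 edgeR 4.0.16 quasi-likelihood fit by group (TMM; filterByExpr with a minimum count of 10, a total of 15 and a proportion of 0.7), with Benjamini-Hochberg adjustment over 89111 regions and a threshold of 0.05. The SE given for an edgeR change is its size divided by the square root of the test's F value, not a separate estimate. Strand balance used limma 3.58.1 on log2 ratios with 0.5 read added. Named rows were the 6 called rows of smallest p per comparison, strand and direction whose libraries did not overlap (1 per gene; overlap allowed between genotypes), and all tested rows of the interferon, double-stranded RNA sensing and inverted Alu lists; BAX, CALM3, VPS4A and COPA are named as the richest rows. Other lists name at most 2 rows per direction. A row that this rule names is not reported here, though counts of rows and calls include it. Alternatives were other scalings, no filter, DESeq2 1.42.0, a replicate block, fewer libraries and rows off annotated exons. R 4.3.3 and Python 3.11.15 were used. On simulated counts for MPS1i in SCR cells over 89111 regions, 49% of 200 regions changed by 2 on the log2 scale were recovered, with 3 false calls. On a simulated strand balance for IFNb in SCR cells with 500 transcripts, 96% of 50 changed by 3 were recovered. In the data 17.5% of regions were called with MPS1i in SCR cells. The measured strand balance had 13 transcripts, with called IFNb changes of 1.65 to 2.47 in SCR cells. Neither recovered share is therefore the sensitivity in these data. Libraries held 3739443 to 7430687 reads, and rows with few reads are measured least precisely.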

Additional observations from a re-analysis of the deposited data

Results flagged for a closer look

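Each value here is the log2 change of a row in IFNAR1sg cells minus its change in SCR cells, and each was picked out because edgeR's quasi-likelihood test of that difference had a Benjamini-Hochberg adjusted p under 0.05.

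With IFNb, rows facing interferon-stimulated genes had the smaller rise in IFNAR1sg cells: PSMB9 -3.36, STAT2 -3.12, IFIT3 -2.81, SHFL -2.43, ZNFX1 -2.12, APOL6 -2.10, RNF213 -1.93, TRIM38 -1.68 and TRIM25 -1.29. The differences at SHFL, TRIM38 and PSMB9 were lost when IFNAR1sg DMSO replicate 2 was left out (-0.79, -1.25 and -2.23), and those at SHFL and TRIM38 were lost in 6 and 10 of the 12 leave-outs and without scaling factors (-2.01 and -1.26). The same direction was found on the other strand of CCDC50 (-1.81), MCL1 (-1.42), PHC2 (-1.26) and MDM2 (-0.93), and on the transcript strand of UFM1 (-1.75), ARIH2 (-1.47), CDK17 (-1.28), RPP30 (-1.17), IFT74 (-1.07) and PNP (-0.98). MDM2 was -0.52, RPP30 -0.74, IFT74 -0.66 and PNP -0.56 without scaling factors, no longer called.

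Positive differences, from a fall with IFNb in SCR cells beside a change that did not pass in IFNAR1sg cells, were found on the other strand of RBM28 (3.33), SLC25A16 (3.20), LPP (2.27), TNRC6B (1.91), SIK2 (1.89, row starting at chr11:111727057) and PDE7A (1.23). On the transcript strand the same was found at TRIP12 (2.69), PDE4D (2.09), SLC35E2A (1.61, row starting at chr1:1731396, not the richest one), RPL13 (1.56), PPARG (1.44) and MDM2 (0.87). The difference at RPL13 was 1.29 and at MDM2 0.74 without SCR IFNb replicate 1, and neither was then called. Calls were also lost for CDK17 (-1.02) without SCR IFNb replicate 1, for PDE7A (0.95) and RBM28 (2.78) without SCR IFNb replicate 2, for PNP (-0.83) without IFNAR1sg IFNb replicate 1, and for 5 rows in more than 1 leave-out. These were IFT74 without IFNAR1sg IFNb replicate 2 (-0.99), IFNAR1sg DMSO replicate 1 (-0.97) or SCR IFNb replicate 2 (-0.89), TRIP12 without IFNAR1sg IFNb replicate 1 (2.40) or SCR IFNb replicate 1 (2.30), SLC35E2A without SCR IFNb replicate 2 (1.35) or replicate 1 of the IFNAR1sg or SCR DMSO libraries, PPARG without IFNAR1sg IFNb replicate 2 (1.40), SCR IFNb replicate 2 (1.14), SCR DMSO replicate 1 (1.17) or either IFNAR1sg DMSO library (1.46 and 1.45), and the other-strand MDM2 row without IFNAR1sg IFNb replicate 2 (-0.81), IFNAR1sg DMSO replicate 2 (-0.81), SCR IFNb replicate 2 (-0.66) or SCR DMSO replicate 1 (-0.44).

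With MPS1i the change differed at TNRC6B, a protein of microRNA silencing (1.33), TRIM2, a ubiquitin ligase (1.33), COLGALT1 (1.21) and BET1L (-1.25), all on the other strand. COLGALT1 and TRIM2 were not called without SCR DMSO replicate 2 (0.78 each), TRIM2 also not without SCR MPS1i replicate 2 (1.18), IFNAR1sg MPS1i replicate 2 (1.14) or IFNAR1sg DMSO replicate 2 (1.31), and BET1L not without SCR DMSO replicate 1 (-0.97) or IFNAR1sg DMSO replicate 2 (-0.83). In DMSO the same COLGALT1 and BET1L rows differed between genotypes the other way, by -1.24 and 1.01. TNRC6B was also lower in IFNAR1sg DMSO, a call lost without SCR DMSO replicate 2 (-0.85). The same DMSO libraries enter both kinds of difference. How much of the MPS1i difference comes from the DMSO libraries was not tested. The strand balance of PAPOLA, tested with limma, differed by 2.78, on 64 transcript-strand reads in all.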

How the results depend on the processing

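No named row that was called turned its direction under any alternative, but without scaling factors the balance of higher and lower calls turned over for the IFNb difference between genotypes on both strands (26 and 96 to 70 and 26; 6 and 14 to 13 and 3) and on the transcript strand for IFNb (32 and 14 to 12 and 32) and MPS1i in SCR cells (13 and 4 to 7 and 9). The ratios of read shares moved by less than the spread between libraries. Of 156 called tests of named rows, 89 passed with each library left out in turn; 11 were lost without scaling factors, 28 with DESeq2 and 59 without the filter, which adds sparse regions to the adjustment. Same-numbered libraries were at most weakly correlated. Over 15 pairs of groups, correlations of their deviations ran from -0.15 to 0.20, with 2 over 0.1 and 1 under -0.1. Whether same-numbered libraries shared a batch was not tested. A replicate block kept all 156 calls; it gave 24 other-strand calls between genotypes in DMSO, 1 transcript-strand call with IFNb in IFNAR1sg cells, 0 strand-balance calls with MPS1i in SCR cells and 4 for the IFNb difference between genotypes.

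Counts of other-strand calls, with the range over left-out libraries, were as follows. MPS1i in IFNAR1sg cells gave 301 (114 to 340; DESeq2 136; no filter 134) and in SCR cells 176 (72 to 188; DESeq2 81; no filter 54). IFNb in IFNAR1sg cells gave 27 (2 to 52; without both SCR IFNb libraries, an alternative chosen after seeing the data, 14; DESeq2 15; no filter 7) and in SCR cells 530 (319 to 577; no filter 191). Genotypes in DMSO gave 14 (2 to 101; without both SCR IFNb libraries 6; only the compared libraries 0; DESeq2 9; no filter 4). The MPS1i difference gave 4 (2 to 29; without both SCR IFNb libraries 1; only the compared libraries 1; no filter 0) and the IFNb difference 122 (52 to 137; no filter 28).

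On the transcript strand, MPS1i gave 11 in IFNAR1sg cells (5 to 14; rows off own-strand exons 7; DESeq2 7; no filter 3) and 17 in SCR cells (9 to 18; rows off exons 7; no filter 4). IFNb gave 0 in IFNAR1sg cells (0 to 0; 1 without scaling factors and 1 by DESeq2) and 46 in SCR cells (29 to 46; rows off exons 24; no filter 22). The IFNb difference gave 20 (11 to 21; rows off exons 9; no filter 6).

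Strand-balance calls with MPS1i in SCR cells were 2 (0 to 2), and 0 with a pseudocount of 2 or with a minimum of 24 or 240 reads. With IFNb in SCR cells they were 3 (3 to 4), and 6 with a pseudocount of 2. In IFNAR1sg cells they were 0 for MPS1i (0 to 1; 2 at 240 reads) and 0 for IFNb (0 to 1), and 0 between genotypes in DMSO (0 to 1). The MPS1i difference gave 1 (0 to 2; 0 at 240 reads) and the IFNb difference 0 (0 to 3; 3 at 240 reads). Unless a value shows it, the cause was not tested. With 2 libraries per group and many rows of few reads, a row without a call was often not measurable at this depth.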
